A study of Mus musculus with 12 samples.

Results

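The p53 target genes examined here are 31 mouse genes, comprising p53 itself (Trp53), 4 regulators of the p53 network and 26 genes of growth arrest, death and repair that p53 is known to activate in mouse or human cells. They were chosen by symbol: all probes on the array, controls aside, whose RefSeq transcript maps to 1 of these symbols were taken, which gave 40 of 55681 probes. All 31 genes passed the filter on dim probes and were tested, among 24463 genes in all, of which 15428 had a gene symbol. They were sorted by role into 5 regulators (Trp53, Mdm2, Mdm4, Fbxw7 and Pml), 9 genes of growth arrest (Cdkn1a, Ccng1, Gadd45a, Sesn1, Btg2, Zmat3, Plk2, Plk3 and Ckap2), 13 genes of cell death (Fas, Tnfrsf10b, Eda2r, Pidd1, Bax, Bbc3, Pmaip1, Apaf1, Perp, Ei24, Aen, Phlda3 and Trp53inp1) and 4 genes of DNA repair and nucleotide supply (Rrm2b, Xpc, Ddb2 and Polk).

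The study used 12 arrays, 3 for each of 4 groups of mouse embryonic stem cells, which are pluripotent cells that grow without limit in culture. Nat1-null cells were grown in 2i+LIF or in LIF alone, and wild-type cells in the same pair of media. All were kept on gelatin. The labels name no DNA-damaging agent, and give neither the null allele nor the number of null clones. LIF is a cytokine that sustains self-renewal through STAT3, and 2i is the combination of an inhibitor of the kinase MEK with an inhibitor of GSK3. Nat1 is read as an older name of Eif4g2 (also DAP5), a relative of the translation factor eIF4G that lacks the part binding the cap-binding protein eIF4E.

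p53 is a transcription factor held at a low level by the ubiquitin ligase Mdm2, whose own gene it activates, so that the pair form a feedback loop. Stress that frees p53 from Mdm2 raises the RNA of targets that stop the cell cycle, carry out apoptosis or repair DNA. Embryonic stem cells hold much p53 protein and have a short first gap phase, and p53 activity in them is tied to their readiness to differentiate or die.

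Values are log2 processed signals relative to the 75th percentile of their array, so a difference of 1 is 2-fold. A gene is called higher or lower where limma's moderated test, two-sided and adjusted over all 24463 genes by the Benjamini-Hochberg method, gave an adjusted p below 0.05. Eif4g2, the gene the genotype is named for, measured 1.24, 1.28 and 1.42 on the Nat1-null arrays in 2i+LIF and 1.32, 1.26 and 1.25 on those in LIF. On the wild-type arrays it measured 4.23, 4.09 and 4.29 in 2i+LIF and 4.54, 4.49 and 4.44 in LIF. In Nat1-null cells it was 9.28-fold lower in LIF (limma, adjusted p = 7.0e-10) and 7.42-fold lower in 2i+LIF (adjusted p = 1.5e-08), and the genotypes did not overlap. Each array thus matched its genotype label for this gene.

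Several features of the arrays bear on all comparisons. The 6 Nat1-null arrays shared slide 3, while the wild-type arrays in 2i+LIF were on slide 2 and those in LIF on slide 1, so that genotype, and medium in wild-type cells, cannot be told apart from the slide. Medium in Nat1-null cells was compared within slide 3, although Nat1-null LIF arrays 1 and 2 lay in its row 1 and the other 4 in row 2. Nat1-null replicates varied more, with an SD across genes of the difference between replicate arrays of 0.483 to 0.581, against 0.254 to 0.313 in wild-type cells. Array 2 of each Nat1-null group stood apart from its replicates for several members, and results that rest on it are given with and without it. These arrays were picked after seeing the values of the members, so a smaller p-value without them adds no support. Stem cell markers were above background in every group, 8 of 8, with a log2 summed signal of 9.59 to 9.81 outside the wild-type LIF arrays and 8.95 to 9.01 on them.

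Fibroblast and feeder markers differed sharply between the groups. Of 14 such genes 12 were tested, and their log2 summed signal on the Nat1-null arrays was 3.19 to 3.55 with 2i+LIF and 2.86 to 3.09 with LIF. On the wild-type arrays it was 3.06 to 3.14 with 2i+LIF and 8.14 to 8.25 with LIF. All 12 were above background on the wild-type LIF arrays, whereas Col6a1, Postn, Dcn and Prrx1 were above background on none of the Nat1-null arrays. In a bulk sample, fewer cells of a type and less RNA per cell cannot be told apart. The comparisons that use the wild-type LIF arrays therefore set a group with high fibroblast signal against one with low signal, and its part in the differences below was not tested. Between Nat1-null and wild-type cells in 2i+LIF, and between media in Nat1-null cells, both groups had low fibroblast signal, although the sums did not overlap in either comparison. Of the 12 genes 2 were higher and 4 lower in Nat1-null against wild-type cells in 2i+LIF. With 2i in Nat1-null cells 3 were higher and 2 lower. These calls made up 50% and 41.7% of the list, against 43.6% and 37.1% of all genes. Endoderm markers, 8 of 8 tested, had a log2 summed signal of 4.60 to 5.23 on the Nat1-null arrays in 2i+LIF and 4.87 to 5.38 on those in LIF. On the wild-type arrays it was 4.18 to 4.27 in 2i+LIF and 3.75 to 3.93 in LIF, so that the genotypes did not overlap in either medium, while the media overlapped in Nat1-null cells. The genes of the list were split. Of the 8 genes 2 were higher and 3 lower with 2i in Nat1-null cells. In Nat1-null against wild-type cells 3 were higher and 2 lower in 2i+LIF, and 3 higher and 3 lower in LIF, with a median difference of -0.53 in LIF. These calls made up 62.5%, 62.5% and 75% of the list, against 37.1%, 43.6% and 66.8% of all genes. Sox7 and Dab2 were above background on no Nat1-null array in 2i+LIF, and Sox7 on no wild-type array in 2i+LIF. The part of the endoderm signal in the differences below was not tested.

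**Figure D1:**
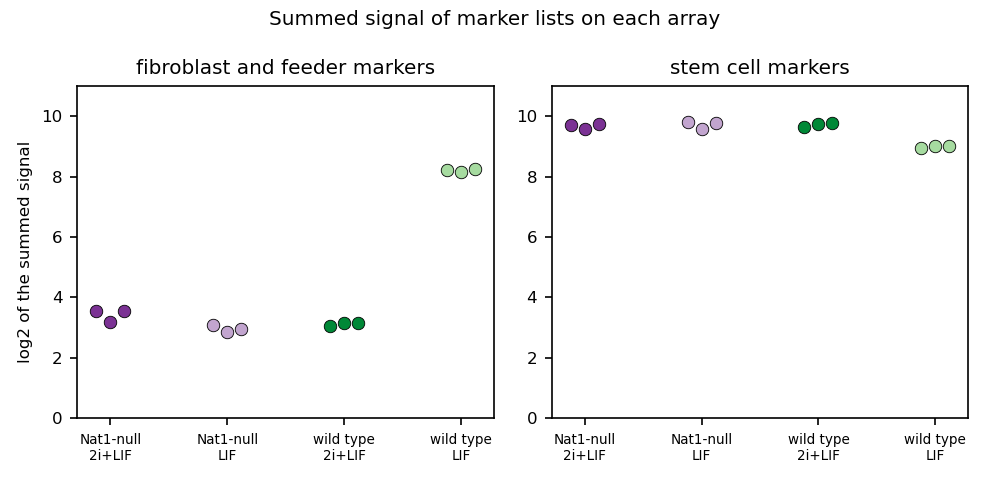
Log2 summed signal of the fibroblast and feeder markers (left) and of the stem cell markers (right) on each array, by group (1 point per array). The 3 wild-type LIF arrays sit between 8.14 and 8.25 for the fibroblast markers, and no other array is above 3.55.

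**Figure D2:**
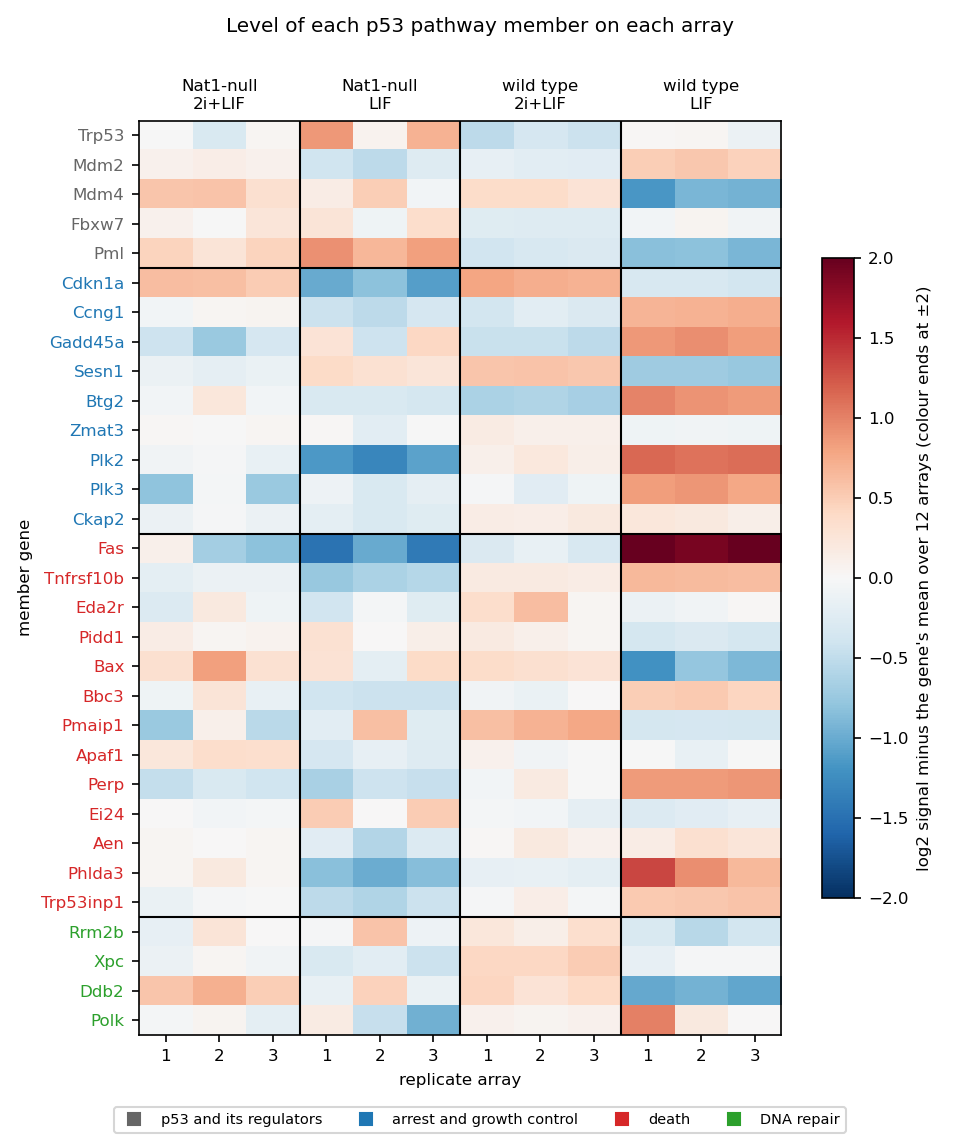
Log2 signal of each member gene on each of the 12 arrays, shown as the difference from that gene's mean over all arrays, with the colour ending at 2 on either side. Rows are genes by role and columns are arrays by group. The wild-type LIF columns are high for Fas, Plk2, Phlda3 and Btg2 and low for Bax, Mdm4 and Ddb2.

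The RNA of p53 and its regulators did not move as 1 group. Trp53 RNA was called higher in Nat1-null cells where both genotypes grew in LIF, and in Nat1-null cells it was lower in 2i+LIF than in LIF. On the Nat1-null arrays Trp53 measured 1.03, 0.74 and 1.08 in 2i+LIF and 1.90, 1.11 and 1.74 in LIF. On the wild-type arrays it measured 0.52, 0.70 and 0.61 in 2i+LIF and 1.06, 1.08 and 0.92 in LIF. The Nat1-null LIF arrays were the highest group, and their array 2 was about as low as the wild-type LIF arrays. The difference between genotypes in LIF was 0.56 (limma, adjusted p = 0.019), and without array 2 of both Nat1-null groups it was 0.80 (adjusted p = 4.7e-05). The difference between media in Nat1-null cells was -0.63 (adjusted p = 0.021), or -0.77 without those arrays (adjusted p = 3.4e-04). Both calls ended when only the groups compared were fitted, at adjusted p = 0.061 for genotype and 0.11 for medium, and each ended without any 1 of 3 single arrays. In wild-type cells 2i+LIF minus LIF was -0.41 and missed the threshold (adjusted p = 0.073), as did the genotypes in 2i+LIF at 0.34 (adjusted p = 0.16).

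Mdm2, the ubiquitin ligase that marks p53 for degradation and is itself a p53 target, changed in opposite directions with 2i in the 2 genotypes. It measured 5.49, 5.54 and 5.50 in Nat1-null cells in 2i+LIF and 5.00, 4.88 and 5.15 in Nat1-null cells in LIF. Wild-type arrays gave 5.23, 5.19 and 5.17 in 2i+LIF and 5.89, 5.94 and 5.86 in LIF. None of the 4 groups overlapped another, and wild-type cells in LIF were the highest and Nat1-null cells in LIF the lowest. With 2i, Mdm2 rose by 0.50 in Nat1-null cells (limma, adjusted p = 3.7e-04) and fell by 0.70 in wild-type cells (adjusted p = 1.3e-05). Against wild type, Nat1-null cells had 1.85-fold less Mdm2 RNA in LIF (adjusted p = 1.5e-06) and 1.24-fold more in 2i+LIF (adjusted p = 0.0045). The last call ended with the row of the slide as a covariate, at 0.095 (adjusted p = 0.54).

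Mdm4, a relative of Mdm2 that binds p53 and blocks its activity, was lowest in wild-type cells in LIF. It measured 0.67, 0.68 and 0.44 in Nat1-null cells in 2i+LIF and 0.26, 0.60 and 0.05 in those in LIF. In wild-type cells the values were 0.48, 0.47 and 0.39 in 2i+LIF and -1.05, -0.80 and -0.83 in LIF. The wild-type LIF arrays lay below all 9 others, and the Nat1-null LIF arrays overlapped both 2i+LIF groups. Mdm4 was 2.53-fold higher with 2i in wild-type cells (limma, adjusted p = 1.5e-05) and 2.3-fold higher in Nat1-null cells in LIF (adjusted p = 2.3e-05). A second Mdm4 probe gave the same calls at smaller sizes, 0.29 with 2i in wild-type cells and 0.63 for genotype in LIF. That probe was also called higher in Nat1-null cells in 2i+LIF, at 0.60 (adjusted p = 7.4e-05), and with 2i in Nat1-null cells, at 0.26 (adjusted p = 0.012), where the first probe was not. Its 2i effect differed between genotypes by -0.03 (adjusted p = 0.83), against -1.05 by the first probe (adjusted p = 0.0012).

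Pml, the protein that builds the nuclear bodies in which p53 is modified, was higher in Nat1-null cells in both media. It measured 3.87, 3.69 and 3.88 in Nat1-null cells in 2i+LIF and 4.34, 4.09 and 4.25 in Nat1-null cells in LIF. The wild-type arrays gave 3.03, 3.10 and 3.13 in 2i+LIF and 2.59, 2.60 and 2.50 in LIF. All Nat1-null arrays lay above all wild-type arrays, and no groups overlapped. In LIF Pml was 3.17-fold higher in Nat1-null cells (limma, adjusted p = 5.4e-08), which was the largest rise among the members, and 1.65-fold higher in 2i+LIF (adjusted p = 6.0e-05). With 2i it fell by 0.42 in Nat1-null cells (adjusted p = 0.0025) and rose by 0.52 in wild-type cells (adjusted p = 2.4e-04), although without scaling between arrays the last value was -0.045. A second Pml probe gave the same directions, with the rise with 2i in wild-type cells, at 0.38, not called (adjusted p = 0.064).

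Fbxw7, which selects cyclin E and Myc for degradation, gave different calls by its 2 probes. The first probe measured 2.09, 1.99 and 2.25 in Nat1-null cells in 2i+LIF and 1.76, 1.75 and 1.74 in wild-type cells in 2i+LIF. The Nat1-null values were all above the wild-type ones, by 0.36 on average (limma, adjusted p = 0.022), but this call ended without any 1 of 4 single arrays and with the row of the slide as a covariate, where the difference was 0.10. In the other comparisons the first probe was not called, with differences between -0.23 and 0.20. A second Fbxw7 probe, above background on all 12 arrays, was not called for genotype in 2i+LIF, at 0.07 (adjusted p = 0.71), or for 2i in wild-type cells, at 0.19 (adjusted p = 0.23). It was higher by 0.71 in Nat1-null cells in LIF (adjusted p = 7.5e-04) and gave -0.45 with 2i in Nat1-null cells (adjusted p = 0.022). Its 2i effect differed between genotypes by -0.64 (adjusted p = 0.015).

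Among the genes of growth arrest, Cdkn1a encodes p21, the inhibitor of cyclin-dependent kinases through which p53 halts the cell cycle. Its brighter probe, designed to NM_007669, was higher with 2i in both genotypes. That probe measured 3.76, 3.74 and 3.64 in Nat1-null cells in 2i+LIF and 2.12, 2.31 and 2.04 in Nat1-null cells in LIF. Among wild-type cells the values were 3.93, 3.86 and 3.84 in 2i+LIF and 2.81, 2.81 and 2.77 in LIF. All 2i+LIF arrays lay above all LIF arrays, and the Nat1-null LIF arrays were lowest. The rise with 2i was 2.94-fold in Nat1-null cells (limma, adjusted p = 5.4e-07) and 2.12-fold in wild-type cells (adjusted p = 1.1e-06). Between genotypes in LIF the probe was 1.55-fold lower in Nat1-null cells (adjusted p = 2.7e-05), and in 2i+LIF the difference of -0.16 was not called (adjusted p = 0.097).

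A second Cdkn1a probe, designed to the transcript NM_001111099, ran against the brighter one in wild-type cells. It measured -2.48, -2.84 and -1.85 in Nat1-null cells in 2i+LIF and -3.28, -3.41 and -3.31 in Nat1-null cells in LIF. On the wild-type arrays it measured -3.90, -3.72 and -3.94 in 2i+LIF and -2.02, -1.89 and -1.91 in LIF, and it was well above background on all 12 arrays. The wild-type LIF arrays were among its highest and the wild-type 2i+LIF arrays its lowest. Its 2i difference in wild-type cells was -1.91 (limma, adjusted p = 2.3e-05), where the brighter probe rose. In 2i+LIF it was 1.47 higher in Nat1-null cells (adjusted p = 2.8e-04), where the brighter probe was not called. Both probes rose with 2i in Nat1-null cells, this one by 0.95 (adjusted p = 0.005), and both were lower in Nat1-null cells in LIF, this one at -1.39 (adjusted p = 1.5e-04). Within each genotype its direction with 2i was that of Mdm2, Plk2 and Phlda3. The 2i effect differed between genotypes by 2.86 by this probe (adjusted p = 2.9e-05), against 0.47 by the brighter one (adjusted p = 0.0034). When the 2 probes were averaged, the 2i difference of Cdkn1a in wild-type cells became -0.42 (adjusted p = 0.0041).

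The promoters of members show where the array values and the p53 binding motif can be set side by side. RefSeq promoter windows on build GRCm38.p6, from 250 bases before to 50 bases after a transcription start, were at hand for 23 of the 31 genes. The consensus of the p53 half-site reads alike on both strands, and a match to it was found in 12 of these 23 genes (52.2%), against 9.55% of 27025 genes with a window. A pair of half-sites no more than 13 bases apart was found in 24 of 32851 windows (0.0731%), and among the members only at the upstream of the Cdkn1a starts. The stretches printed here are that pair (chr17:29090866-29090965, plus strand), the other Cdkn1a start (chr17:29093669-29093768, plus strand), the half-sites of Mdm2 (chr10:117710885-117710984, minus strand) and Ccng1 (chr11:40755412-40755511, minus strand), both of which moved in opposite directions with 2i in the 2 genotypes, and those of Gadd45a (chr6:67037408-67037507, minus strand) and Trp53 (chr11:69580244-69580343, plus strand). Capitals mark half-sites.
Cdkn1a upstream start: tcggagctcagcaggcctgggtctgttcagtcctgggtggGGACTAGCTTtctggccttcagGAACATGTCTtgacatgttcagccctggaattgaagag
Cdkn1a downstream start: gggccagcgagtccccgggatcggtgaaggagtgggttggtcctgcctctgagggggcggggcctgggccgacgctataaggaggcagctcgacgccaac
Mdm2: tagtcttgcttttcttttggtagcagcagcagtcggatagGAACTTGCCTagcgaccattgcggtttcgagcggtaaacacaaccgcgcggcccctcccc
Ccng1: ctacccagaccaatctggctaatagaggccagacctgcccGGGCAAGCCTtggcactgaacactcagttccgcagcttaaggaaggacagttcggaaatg
Gadd45a: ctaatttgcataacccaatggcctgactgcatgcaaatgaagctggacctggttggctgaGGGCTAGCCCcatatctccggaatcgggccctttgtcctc
Trp53: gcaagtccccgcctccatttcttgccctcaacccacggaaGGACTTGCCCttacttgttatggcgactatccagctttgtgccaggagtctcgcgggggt
Matches had to fit the consensus at each of its 10 letters. The 2 half-sites of Cdkn1a so matched begin 73 and 51 bases before the upstream start, with 12 bases between them. The 10 bases directly after the second miss the consensus at their first letter only, so they are not marked. The downstream stretch, which runs up to the other start, holds none. The promoter table does not say which transcript begins at which start, so the 2 Cdkn1a probes were not assigned to them. The single half-sites begin 186 bases before the start of Mdm2, 185 before that of Ccng1, 40 before that of Gadd45a and 75 before that of Trp53. A match is a description of the letters and not of binding. Other members also fell with 2i in wild-type cells and rose with it in Nat1-null cells. Of these Btg2, Plk2, Fas, Bbc3 and Phlda3 had no match in their windows, which says nothing of sites elsewhere. Tnfrsf10b and Trp53inp1 had no window. Matches not printed here were those of Ckap2, Sesn1, Aen, Bax, Ei24, Pml and Polk, none of which was called in that pattern.

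**Figure D3:**
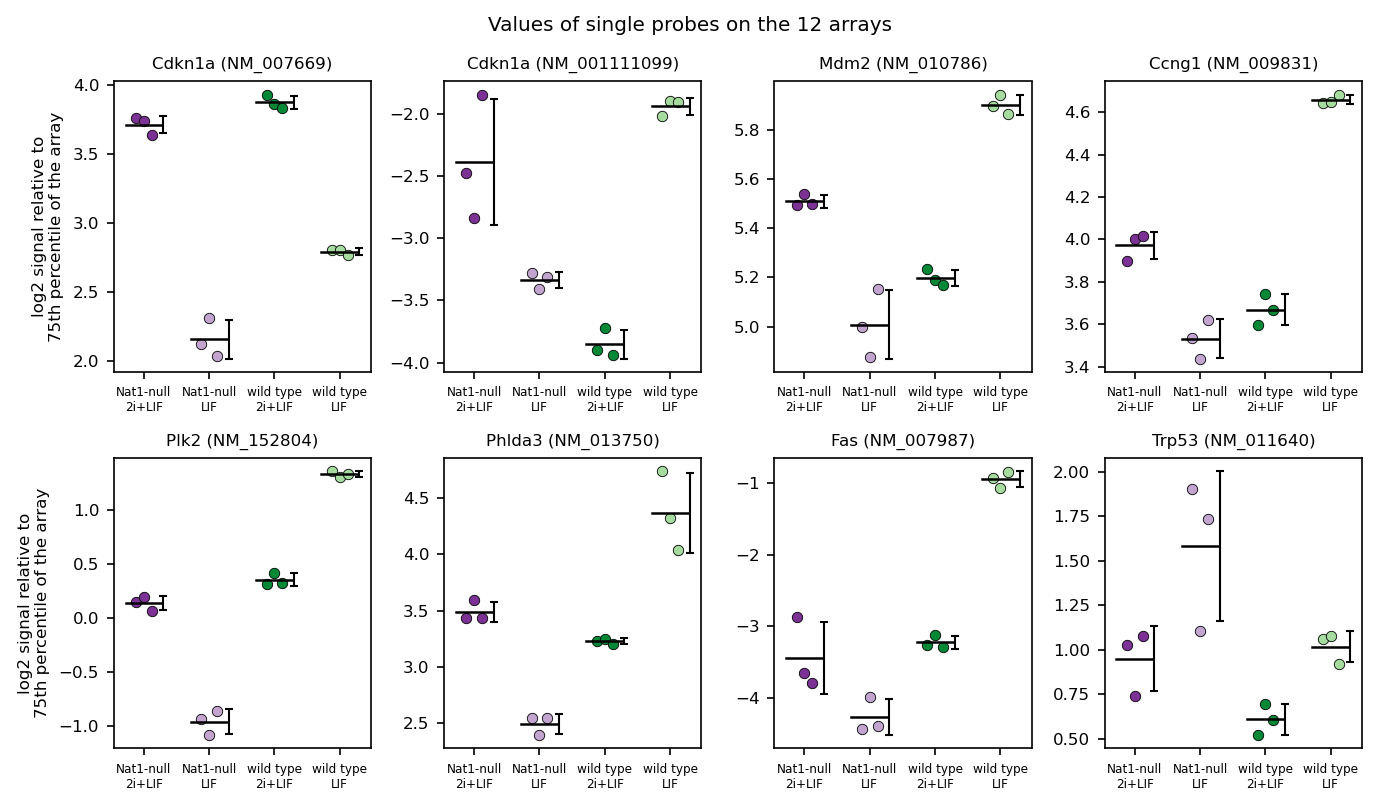
Log2 signal, scaled to each array's 75th percentile, of single probes (both Cdkn1a probes, Mdm2, Ccng1, Plk2, Phlda3, Fas and Trp53), by group, with 1 point per array, the mean as a line and the SD as a bar (n = 3). The vertical scales differ. The brighter Cdkn1a probe is high in both 2i+LIF groups, while the second Cdkn1a probe, like Mdm2, Ccng1, Plk2, Phlda3 and Fas, is highest in wild-type cells in LIF.

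Among the other arrest genes Ccng1, Plk2 and Btg2 moved in opposite directions with 2i in the 2 genotypes, as Mdm2 did, while Gadd45a and Sesn1 took other courses. Ccng1 encodes cyclin G1, which acts on Mdm2 through a phosphatase. It measured 3.90, 4.0 and 4.02 in Nat1-null cells in 2i+LIF and 3.53, 3.44 and 3.62 in those in LIF, against 3.60, 3.74 and 3.67 in wild-type cells in 2i+LIF and 4.64, 4.65 and 4.68 in those in LIF. Wild-type cells in LIF were highest. With 2i it rose by 0.44 in Nat1-null cells (limma, adjusted p = 5.5e-04) and fell by 0.99 in wild-type cells (adjusted p = 8.8e-07). Nat1-null cells had 2.18-fold less of it in LIF (adjusted p = 2.0e-07), and 1.23-fold more in 2i+LIF (adjusted p = 0.0036), a call that ended with the row of the slide as a covariate (adjusted p = 0.33).

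Plk2, a stress-induced kinase of the polo family, had the largest genotype difference of the arrest genes. It measured 0.15, 0.20 and 0.07 in Nat1-null cells in 2i+LIF and -0.93, -1.08 and -0.86 in Nat1-null cells in LIF. In wild-type cells it measured 0.32, 0.42 and 0.33 in 2i+LIF and 1.36, 1.31 and 1.33 in LIF. No groups overlapped, and Nat1-null cells in LIF lay well below the rest. Plk2 was 4.89-fold lower in Nat1-null cells in LIF (limma, adjusted p = 3.1e-09), rose 2.14-fold with 2i in Nat1-null cells (adjusted p = 2.5e-06) and was 1.97-fold lower with 2i in wild-type cells (adjusted p = 1.4e-06). In 2i+LIF the genotypes differed by -0.22 (adjusted p = 0.025), which without scaling was 0.0050 and which was not called without any 1 of 3 single arrays. Its relative Plk3 was lower with 2i in wild-type cells by 0.94 and lower in Nat1-null cells in LIF by 1.03 (adjusted p = 9.7e-04 and 4.5e-04), and was not called between media in Nat1-null cells or between genotypes in 2i+LIF. Without array 2 of both Nat1-null groups the last 2 differences of Plk3 were -0.63 and -0.66, and both passed (adjusted p = 4.8e-04 and 1.5e-04). That fit was chosen after seeing the data.

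Btg2, an antiproliferative protein that works with an RNA deadenylase, was highest in wild-type cells in LIF and lowest in wild-type cells in 2i+LIF. It measured 0.76, 1.05 and 0.75 in Nat1-null cells in 2i+LIF and 0.51, 0.51 and 0.46 in those in LIF. The wild-type arrays gave 0.17, 0.20 and 0.14 in 2i+LIF and 1.80, 1.71 and 1.67 in LIF. The 4 groups did not overlap. It was 2.94-fold lower with 2i in wild-type cells (limma, adjusted p = 2.0e-07), 2.35-fold lower in Nat1-null cells in LIF (adjusted p = 4.7e-07) and 1.6-fold higher in Nat1-null cells in 2i+LIF (adjusted p = 9.9e-05). The rise of 0.36 with 2i in Nat1-null cells (adjusted p = 0.0062) ended within slide 3 alone, at adjusted p = 0.062, and without scaling, at 0.16.

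Gadd45a, a stress sensor that binds the replication clamp PCNA, was lower with 2i in both genotypes. It measured 1.58, 1.27 and 1.68 in Nat1-null cells in 2i+LIF and 2.28, 1.59 and 2.43 in Nat1-null cells in LIF. Wild-type cells gave 1.56, 1.56 and 1.48 in 2i+LIF and 2.88, 2.93 and 2.85 in LIF. The Nat1-null media overlapped through array 2 of the LIF group, while the wild-type media were far apart. It was 2.55-fold lower with 2i in wild-type cells (limma, adjusted p = 1.6e-04) and 1.72-fold lower in Nat1-null cells in LIF (adjusted p = 0.0043). In Nat1-null cells it fell by 0.59 with 2i (adjusted p = 0.035), and by 0.72 without array 2 of both groups (adjusted p = 1.2e-04). The call ended when any 1 of 6 single arrays was left out, and within slide 3 alone (adjusted p = 0.15).

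Sesn1, a sestrin that restrains the growth kinase mTORC1, moved against most arrest genes. It measured 2.16, 2.10 and 2.14 in Nat1-null cells in 2i+LIF and 2.67, 2.59 and 2.52 in Nat1-null cells in LIF. Wild-type arrays gave 2.84, 2.85 and 2.82 in 2i+LIF and 1.57, 1.56 and 1.53 in LIF. No groups overlapped, and replicates lay close together. With 2i it fell by 0.46 in Nat1-null cells (limma, adjusted p = 9.4e-05) and rose by 1.28 in wild-type cells (adjusted p = 4.3e-08). Nat1-null cells had 2.05-fold more in LIF (adjusted p = 6.8e-08) and 1.63-fold less in 2i+LIF (adjusted p = 4.8e-06).

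Zmat3, an RNA-binding zinc finger protein, was nearly level across the study, with Nat1-null means of 2.99 in 2i+LIF and 2.91 in LIF, against wild-type means of 3.09 in 2i+LIF and 2.89 in LIF. Its single call, a rise of 0.20 with 2i in wild-type cells (limma, adjusted p = 0.02), turned to -0.36 without scaling and ended without any 1 of 3 single arrays. Ckap2, a protein of the mitotic spindle, was 0.43 lower in Nat1-null cells in LIF (adjusted p = 5.7e-05) and 0.25 lower in 2i+LIF (adjusted p = 0.0047), a difference that was -0.024 without scaling. Its call between media in Nat1-null cells, at 0.16 (adjusted p = 0.04), ended under most alternatives.

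Of the genes of cell death, Fas, the receptor through which the Fas ligand triggers apoptosis, differed most. It measured -2.87, -3.66 and -3.80 in Nat1-null cells in 2i+LIF and -4.44, -3.99 and -4.39 in Nat1-null cells in LIF, where it was well above background on 2 of 3 arrays. Among wild-type cells the values were -3.26, -3.13 and -3.29 in 2i+LIF and -0.92, -1.07 and -0.85 in LIF. Far above the other 9 stood the wild-type LIF arrays. In LIF the Nat1-null difference of Fas was -3.33 (limma, adjusted p = 5.2e-07), and it was 4.86-fold lower with 2i in wild-type cells (adjusted p = 1.2e-05), the comparisons in which fibroblast markers also differed. It rose 1.78-fold with 2i in Nat1-null cells (adjusted p = 0.014), but this call ended without LIF array 1 (adjusted p = 0.052) and within slide 3 alone (adjusted p = 0.093).

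Phlda3, which blocks the survival kinase Akt, had the order of groups of Mdm2. It measured 3.44, 3.59 and 3.44 in Nat1-null cells in 2i+LIF and 2.55, 2.40 and 2.55 in Nat1-null cells in LIF. In wild-type cells it measured 3.23, 3.25 and 3.20 in 2i+LIF and 4.74, 4.32 and 4.04 in LIF. The wild-type LIF arrays were the highest and the most spread, and the Nat1-null LIF arrays the lowest. With 2i it rose 1.99-fold in Nat1-null cells (limma, adjusted p = 5.8e-04) and was 2.2-fold lower in wild-type cells (adjusted p = 8.1e-05). In LIF it was 3.65-fold lower in Nat1-null cells (adjusted p = 1.7e-06), and in 2i+LIF the difference of 0.26 was not called (adjusted p = 0.17).

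Tnfrsf10b, the mouse receptor for the death ligand TRAIL, and Trp53inp1, a stress protein that promotes p53 activity and autophagy, moved in opposite directions with 2i in the 2 genotypes. With 2i Tnfrsf10b rose by 0.52 in Nat1-null cells and fell by 0.47 in wild-type cells (limma, adjusted p = 8.8e-05 and 5.5e-05), and it was 2.45-fold lower in Nat1-null cells in LIF (adjusted p = 3.3e-08). In 2i+LIF Tnfrsf10b differed by -0.31 in Nat1-null cells (adjusted p = 0.0015), and without scaling by -0.088, which was not called. With 2i Trp53inp1 rose by 0.47 in Nat1-null cells and fell by 0.53 in wild-type cells (adjusted p = 5.4e-04 and 8.5e-05), and it was 2.1-fold lower in Nat1-null cells in LIF (adjusted p = 4.1e-07). A second Trp53inp1 probe gave the same directions, with 0.66 and -0.26 for 2i. Perp, a membrane protein of desmosomes, measured 2.47, 2.65 and 2.56 in Nat1-null cells in 2i+LIF and 2.31, 2.55 and 2.49 in Nat1-null cells in LIF. It measured 2.90, 3.14 and 2.95 in wild-type cells in 2i+LIF and 3.81, 3.81 and 3.83 in wild-type cells in LIF. All Nat1-null arrays lay below all wild-type arrays, and the wild-type LIF arrays were highest. Perp was 2.59-fold lower in Nat1-null cells in LIF (adjusted p = 3.0e-07) and 1.35-fold lower in 2i+LIF (adjusted p = 0.002), and it fell by 0.82 with 2i in wild-type cells (adjusted p = 1.7e-05). The 2i difference in Nat1-null cells, 0.11, was not called (adjusted p = 0.31). The genotype call in 2i+LIF ended without scaling, at -0.22 (adjusted p = 0.13), and with the row of the slide as a covariate (adjusted p = 0.052).

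The mitochondrial branch of apoptosis was split. Bax, which opens the outer mitochondrial membrane, measured 2.74, 3.24 and 2.72 in Nat1-null cells in 2i+LIF and 2.71, 2.22 and 2.80 in Nat1-null cells in LIF. It measured 2.78, 2.73 and 2.70 in wild-type cells in 2i+LIF and 1.21, 1.64 and 1.51 in wild-type cells in LIF. The wild-type LIF arrays were below the other 9, and those 9 overlapped. Bax was 2.43-fold higher with 2i in wild-type cells (limma, adjusted p = 1.9e-04) and 2.17-fold higher in Nat1-null cells in LIF (adjusted p = 3.8e-04), in the 2 comparisons in which fibroblast markers were lower. Bbc3 (Puma), which frees Bax from its inhibitors, ran the other way, lower with 2i in wild-type cells by 0.55 (adjusted p = 6.7e-04) and lower in Nat1-null cells in LIF by 0.90 (adjusted p = 1.7e-05). Its rise of 0.42 with 2i in Nat1-null cells (adjusted p = 0.0068) ended within slide 3 alone (adjusted p = 0.066) and without scaling (adjusted p = 0.15).

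Pmaip1 (Noxa), another activator of the mitochondrial pathway, measured 2.31, 3.14 and 2.50 in Nat1-null cells in 2i+LIF and 2.84, 3.65 and 2.80 in Nat1-null cells in LIF. Wild-type arrays gave 3.65, 3.74 and 3.81 in 2i+LIF and 2.68, 2.70 and 2.69 in LIF. Array 2 was the highest of its group in both Nat1-null groups. In 2i+LIF Pmaip1 was 2.12-fold lower in Nat1-null cells (limma, adjusted p = 0.0055), the largest fall among the members there, and the difference was -1.33 without array 2 of both Nat1-null groups (adjusted p = 4.5e-06). With the row of the slide as a covariate that difference was -0.64 and was not called (adjusted p = 0.35). With 2i it was 2.06-fold higher in wild-type cells (adjusted p = 0.0043), a call that ended without scaling, at 0.47 (adjusted p = 0.13). In Nat1-null cells the 2i difference of -0.45 was not called (adjusted p = 0.18).

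Apaf1, the scaffold of the apoptosome, rose by 0.55 with 2i in Nat1-null cells (limma, adjusted p = 2.2e-04), and its wild-type difference was 0.06 (adjusted p = 0.47). Between genotypes Apaf1 was 0.30 higher in Nat1-null cells in 2i+LIF (adjusted p = 0.0062) and -0.19 in LIF (adjusted p = 0.03), and the LIF call ended without any 1 of 4 single arrays. Aen, a nuclease induced by p53, rose by 0.39 with 2i in Nat1-null cells (adjusted p = 0.01) and fell by 0.60 in Nat1-null against wild-type cells in LIF (adjusted p = 3.1e-04). Its 2i call ended within slide 3 alone (adjusted p = 0.066). Ei24, a membrane protein of the endoplasmic reticulum, was 0.56 higher in Nat1-null cells in LIF (adjusted p = 0.0023) and fell by 0.37 with 2i in Nat1-null cells (adjusted p = 0.037). The fall with 2i was not called in 10 of 12 fits that left out 1 array. Pidd1, the scaffold that activates caspase 2, was higher by 0.43 with 2i in wild-type cells and by 0.47 in Nat1-null cells in LIF (adjusted p = 7.3e-04 and 3.5e-04), and without scaling its 2i difference was -0.14. Eda2r, a receptor of the tumour necrosis factor family, was called in no comparison by its brighter probe, with differences between -0.39 and 0.39. Its second probe was -0.86 for genotype in LIF (adjusted p = 6.3e-05) and -0.37 for 2i in wild-type cells (adjusted p = 0.013), where the brighter probe gave 0.39. The second probe was also called for genotype in 2i+LIF, at -0.50 (adjusted p = 0.0046).

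No repair gene was called lower with 2i in either genotype. Ddb2, which finds ultraviolet lesions in DNA, measured 1.43, 1.59 and 1.37 in Nat1-null cells in 2i+LIF and 0.73, 1.34 and 0.75 in Nat1-null cells in LIF. Among wild-type cells the values were 1.31, 1.15 and 1.27 in 2i+LIF and -0.15, -0.07 and -0.16 in LIF. The wild-type LIF arrays were below the other 9, and array 2 of the Nat1-null LIF group was above its replicates. Ddb2 was 2.59-fold higher with 2i in wild-type cells (limma, adjusted p = 2.3e-05), the largest rise among the members there, and 2.09-fold higher in Nat1-null cells in LIF (adjusted p = 1.0e-04). In Nat1-null cells it rose by 0.52 with 2i (adjusted p = 0.018), and by 0.66 without array 2 of both groups. The call ended within slide 3 alone (adjusted p = 0.11) and without any 1 of 3 single arrays.

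Xpc, which recognises distorted DNA in nucleotide excision repair, measured 1.15, 1.31 and 1.19 in Nat1-null cells in 2i+LIF and 0.97, 1.05 and 0.84 in Nat1-null cells in LIF. In wild-type cells it measured 1.68, 1.68 and 1.78 in 2i+LIF and 1.11, 1.24 and 1.24 in LIF, with wild-type cells in 2i+LIF above all others. Xpc was 1.41-fold lower in Nat1-null cells in 2i+LIF (limma, adjusted p = 4.1e-04). With 2i it rose by 0.26 in Nat1-null cells and by 0.52 in wild-type cells (adjusted p = 0.019 and 1.6e-04), and without scaling these were 0.070 and -0.048. The call in Nat1-null cells also ended within slide 3 alone (adjusted p = 0.092) and without LIF array 3 or 2i+LIF array 2. In LIF Xpc was -0.24 in Nat1-null against wild-type cells (adjusted p = 0.014), a call that ended without wild-type array 2 or Nat1-null array 3. Rrm2b, a subunit of ribonucleotide reductase that supplies nucleotides for repair, was higher by 0.63 with 2i in wild-type cells (adjusted p = 0.0097) and by 0.56 in Nat1-null cells in LIF (adjusted p = 0.017). Without scaling both calls of Rrm2b ended (adjusted p = 0.76 and 0.084), and the genotype call also ended without wild-type LIF array 2. Polk, a polymerase that copies damaged DNA, was 0.83 lower in Nat1-null cells in LIF (adjusted p = 0.031), a call that ended without wild-type LIF array 1 (adjusted p = 0.11) and without Nat1-null LIF array 2 or 3. A second Polk probe was -0.53 in that comparison (adjusted p = 0.028) and was called higher with 2i in Nat1-null cells, at 0.61 (adjusted p = 0.027), where the first probe, at 0.36, was not (adjusted p = 0.37).

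With 2i in wild-type cells more arrest and death genes were lower than higher, while 3 of the 4 repair genes were higher. Of the 31 members 11 were higher and 12 lower in 2i+LIF, where 62.2% of all genes were called, 35% higher and 27.2% lower. Arrest genes were 3 higher and 5 lower with a median difference of -0.94, death genes 3 higher and 6 lower with a median of -0.13, and repair genes 3 higher and 0 lower with a median of 0.58. Regulators were 2 higher and 1 lower. The median of all members was -0.13 and that of all genes 0.06, and 23 of 31 members were called. Without scaling between arrays the median of all genes was -0.50 and members were 5 higher and 20 lower. In that fit 2239 of the 24463 genes were higher and 15244 lower. Fibroblast markers were 1 higher and 9 lower of 12 in the same comparison.

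In LIF most arrest and death genes were lower in Nat1-null cells. Nat1-null cells had 9 members higher and 18 lower than wild-type cells, where 66.8% of all genes were called, 33.9% higher and 32.9% lower. Arrest genes were 1 higher (Sesn1) and 7 lower with a median of -0.78, and death genes 3 higher (Bax, Ei24 and Pidd1) and 8 lower with a median of -0.60. Repair genes were 2 higher and 2 lower with a median of 0.16, and regulators 3 higher and 1 lower. Members differed by a median of -0.43 and all genes by 0.02. Fibroblast markers were 0 higher and 11 lower of 12.

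Between genotypes fewer members were called in 2i+LIF than in LIF. Nat1-null cells had 6 members higher and 7 lower than wild-type cells, where 43.6% of all genes were called, 21% higher and 22.6% lower. The share of members called, 13 of 31, was near this background. The summed endoderm signal was above that of wild-type cells on all Nat1-null arrays here, and its part was not tested. Regulators were 3 higher (Pml, Fbxw7 and Mdm2) and 0 lower, arrest genes 2 higher and 3 lower, death genes 1 higher and 3 lower, and repair genes 0 higher and 1 lower. With the row of the slide as a covariate 2 were higher and 2 lower, where 2357 of 24463 genes were higher and 2440 lower. Without array 2 of both Nat1-null groups 7 were higher and 11 lower, against 6053 and 6117 of all genes. Without scaling 9 were higher and 3 lower, against 9896 and 3147, with the median of all genes at 0.22.

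**Figure D4:**
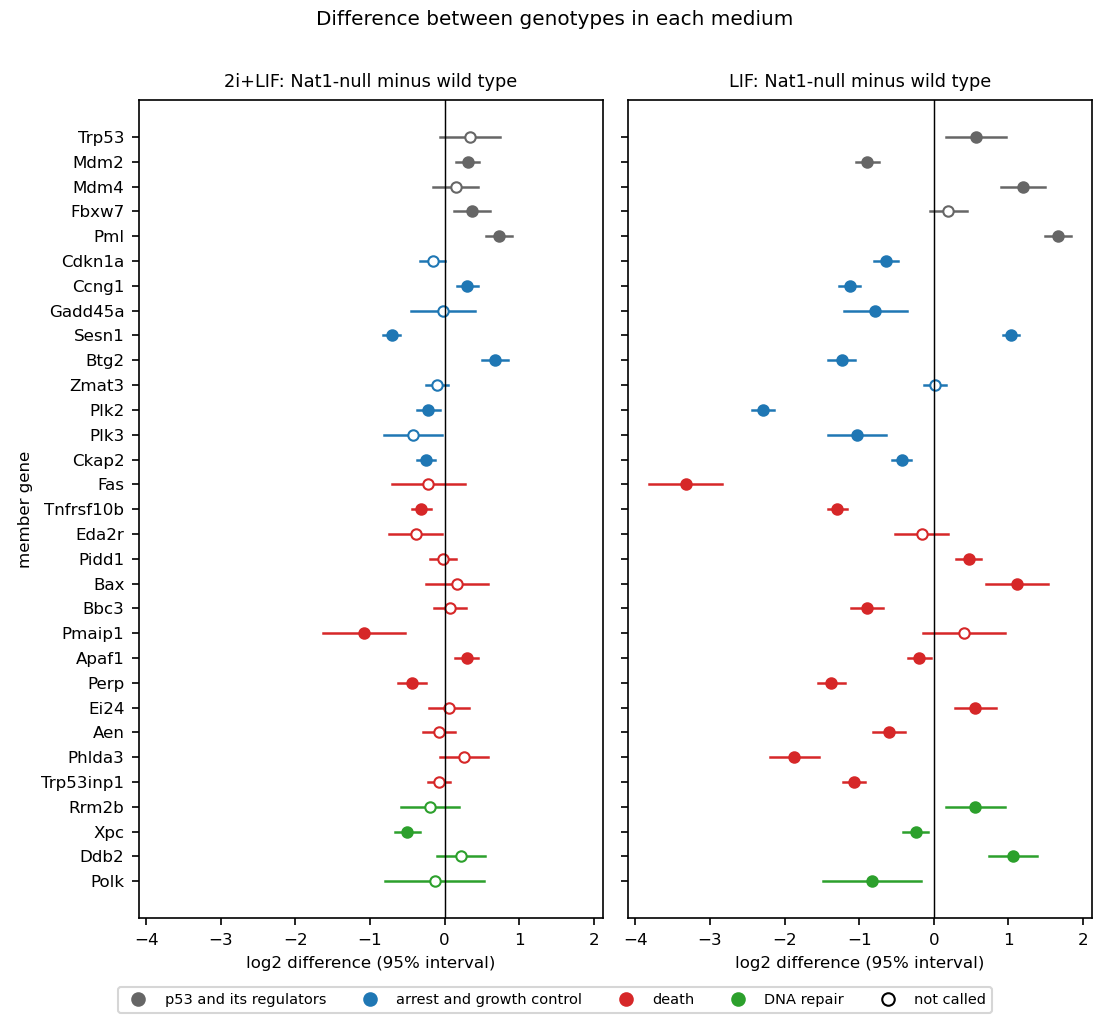
Log2 difference of each member between Nat1-null and wild-type cells in 2i+LIF (left) and in LIF (right), with 95% intervals from limma, coloured by role, with open circles where the gene was not called. In LIF most arrest and death genes lie left of 0 and Pml, Mdm4, Bax, Ddb2 and Sesn1 right of it, while in 2i+LIF the only member past a log2 difference of 1 is Pmaip1.

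In Nat1-null cells more members were higher than lower with 2i. Media were compared there within 1 slide, and fibroblast signal was low in both groups, although its sums did not overlap. Of the members 15 were higher and 5 lower in 2i+LIF, where 37.1% of all genes were called, 21.4% higher and 15.8% lower. Arrest genes were 5 higher and 2 lower with a median of 0.16, death genes 7 higher and 1 lower with a median of 0.39, repair genes 2 higher and 0 lower with a median of 0.31, and regulators 1 higher (Mdm2) and 2 lower (Trp53 and Pml). The median was 0.29 over members and 0.05 over all genes. With only the 6 Nat1-null arrays in the fit, 8 members were higher and 2 lower, where 2643 of 24463 genes were higher and 2203 lower. Without array 2 of both groups 15 were higher and 7 lower, against 5419 and 4452 of all genes. Without scaling 9 were higher and 6 lower, against 1911 and 6714, with the median of all genes at -0.14.

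**Figure D5:**
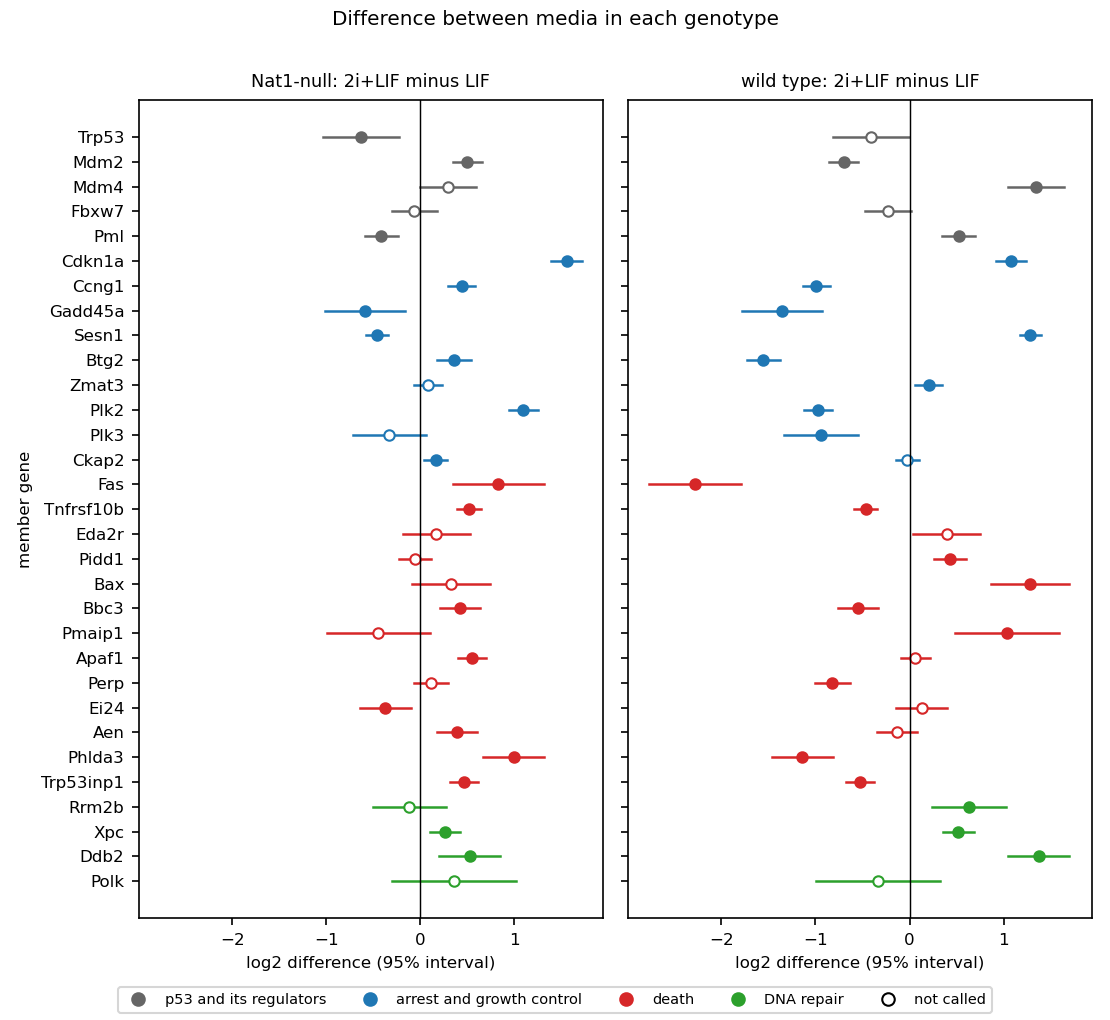
Log2 difference of each member between 2i+LIF and LIF in Nat1-null cells (left) and in wild-type cells (right), with 95% intervals from limma, coloured by role, with open circles where the gene was not called. Mdm2, Ccng1, Btg2, Plk2, Fas, Tnfrsf10b, Bbc3, Phlda3 and Trp53inp1 lie right of 0 in Nat1-null cells and left of it in wild-type cells.

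The 2 medium comparisons share no arrays, so their calls can be set side by side. In the fit reported they do share 1 estimate of the spread of each gene. The members higher with 2i in Nat1-null cells and lower with it in wild-type cells numbered 9 of 31, against 4.92% of all genes tested (1203 of 24463). They were the regulator Mdm2, the arrest genes Ccng1, Btg2 and Plk2, and the death genes Fas, Tnfrsf10b, Bbc3, Phlda3 and Trp53inp1, with no repair gene among them. Mdm2, Ccng1, Plk2, Tnfrsf10b, Phlda3 and Trp53inp1 were so called under each of the 24 alternatives run as well. The reverse pattern held for Pml and Sesn1 (5% of all genes), a rise in both genotypes for Cdkn1a, Xpc and Ddb2 (10.8%), and a fall in both for Gadd45a (5.97%). The difference of the 2i effect between genotypes was itself called for 23 members, 14 with a higher and 9 with a lower value in Nat1-null cells, where 49.7% of all genes were called, 23.6% higher and 26.1% lower. Without scaling these were 17 and 4, with the median of all genes at 0.34, and 10272 of 24463 genes were higher and 2810 lower. The largest were Fas at 3.11, Phlda3 at 2.13, Plk2 at 2.07 and Btg2 at 1.91 among the higher, and Sesn1 at -1.74, Pmaip1 at -1.49, Mdm4 at -1.05 and Bax at -0.95 among the lower (limma, adjusted p between 1.2e-07 and 0.012). By role, the difference was called higher for 5 and lower for 1 of 9 arrest genes, 8 and 4 of 13 death genes, 0 and 2 of 4 repair genes, and 1 and 2 of 5 regulators. This comparison uses the wild-type LIF arrays, in which fibroblast signal was high. In these counts Cdkn1a and Mdm4 stand by their brighter probes, and their second probes differed as given above.

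Other genes of the pathway were followed as 3 lists. Of 20 genes upstream of p53 (kinases, acetylases, ubiquitin enzymes and relatives of p53), 4 were higher and 3 lower with 2i in Nat1-null cells, and 4 higher and 7 lower with 2i in wild-type cells. Nat1-null against wild-type cells gave 6 higher and 9 lower in LIF and 4 higher and 6 lower in 2i+LIF. The shares called in these 4 comparisons were 35%, 55%, 75% and 50% of the list, against 37.1%, 62.2%, 66.8% and 43.6% of all genes. The list thus lay near the background throughout, on either side of it. Without scaling 0 were higher and 14 lower with 2i in wild-type cells, where 2239 of 24463 genes were higher and 15244 lower. For genotype in 2i+LIF 11 were higher and 4 lower without scaling, against 9896 and 3147 of all genes. With 2i in Nat1-null cells the rises included Cdkn2a, whose Arf product inhibits Mdm2, at 1.02, the checkpoint kinase Chek2 at 0.72, and the p53-binding repair factor Trp53bp1 at 0.65 (limma, adjusted p = 0.0037, 2.4e-05 and 6.6e-04). The falls were the deacetylase Sirt1 at -0.52, the kinase Hipk2 at -0.49 and the repair kinase Prkdc at -0.15 (adjusted p = 0.036, 0.0012 and 0.039). With 2i in wild-type cells Trp53bp1 was -1.21, Hipk2 -0.96 and the phosphatase Ppm1d, which is itself a p53 target, -0.94, while the checkpoint kinase Chek1 was 1.13, the acetylase Kat5 0.48 and Prkdc 0.46 (adjusted p between 3.9e-06 and 0.038). In LIF, Nat1-null cells had more of the acetylase Ep300 (1.06), Hipk2 (0.83) and the deubiquitinase Usp7, which stabilises Mdm2 and p53 (0.67). They had less Trp53bp1 (-1.51), less of the acetylase Crebbp (-1.08) and less Cdkn2a (-0.84). In 2i+LIF, Hipk2 (1.31), Ep300 (0.82) and Usp7 (0.50) were again higher in Nat1-null cells, and Chek1 (-1.30), Crebbp (-0.55) and the p53 relative Trp63 (-0.41) lower. Chek1 rests on wild-type 2i+LIF array 3, which measured -1.22, against -2.73 and -2.83 on arrays 1 and 2. Without that array its differences were 0.61 for 2i and -0.78 for genotype, and neither was called (adjusted p = 0.11 and 0.068). Chek1 was above background on 2 of 3 arrays of each Nat1-null group. The falls of Sirt1 and Prkdc in Nat1-null cells were not called within slide 3 alone (adjusted p = 0.15 and 0.17) or in 8 and 11 of 12 fits that left out 1 array, and Sirt1 was -0.34 without LIF array 3. The rise of Cdkn2a also missed the threshold within slide 3 alone (adjusted p = 0.051). Without scaling the 2i differences of Kat5 and Prkdc in wild-type cells were -0.091 and -0.11, and with the row of the slide as a covariate Usp7 in 2i+LIF was 0.19 and not called.

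Of 20 further p53 targets 18 were tested. They were 7 higher and 2 lower with 2i in Nat1-null cells and 5 higher and 7 lower with 2i in wild-type cells, and Nat1-null against wild-type cells gave 5 higher and 11 lower in LIF and 5 higher and 3 lower in 2i+LIF. The shares called were 50%, 66.7%, 88.9% and 44.4% of the list in that order, against 37.1%, 62.2%, 66.8% and 43.6% of all genes, and those for 2i in wild-type cells and for genotype in 2i+LIF were near this background. Without scaling 4 were higher and 4 lower with 2i in Nat1-null cells, where 1911 of 24463 genes were higher and 6714 lower. Thbs1, a matrix protein, was not well above background on any wild-type 2i+LIF or Nat1-null LIF array, and it was at least 198-fold lower with 2i in wild-type cells and at least 194-fold lower in Nat1-null cells in LIF. Thbs1 thus had its high values on the arrays with high fibroblast signal. The tetraspanin Cd82 rose by 1.34 and the metalloreductase Steap3 by 0.66 with 2i in Nat1-null cells (limma, adjusted p = 4.1e-05 and 0.0094). The falls there were Fdxr, a mitochondrial reductase, at -0.62 (adjusted p = 7.1e-06), and the arrest protein Rprm, which was at least 3.29-fold lower and not well above background on the Nat1-null 2i+LIF arrays. With 2i in wild-type cells the antiproliferative Tob1 was 1.54, the death protein Bid 1.09 and the glutaminase Gls2 0.67 higher, and Sfn, a checkpoint protein, gave -1.60 (adjusted p between 3.7e-08 and 6.5e-06). In LIF, Nat1-null cells had more Gls2 (1.35), the receptor kinase Epha2 (1.22) and Fdxr (1.17), and less Rprm (-1.90). In 2i+LIF, Sfn (1.62), Cd82 (1.47) and Epha2 (0.58) were higher in Nat1-null cells. Tob1 (-0.48) and Psrc1, a spindle protein (-0.31), were lower there, and Rprm was at least 5.25-fold lower. Steap3 was not called within slide 3 alone (adjusted p = 0.078), Gls2 with 2i in wild-type cells was 0.11 without scaling, and Epha2 and Psrc1 in 2i+LIF were not called with the row of the slide as a covariate (adjusted p = 0.25 and 0.071).

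The third list holds 20 genes of mitosis and the cell cycle that p53 represses through p21 and the DREAM complex. They were 1 higher and 3 lower with 2i in Nat1-null cells, 14 higher and 1 lower with 2i in wild-type cells, 16 higher and 0 lower in Nat1-null against wild-type cells in LIF, and 3 higher and 0 lower in Nat1-null cells in 2i+LIF. Their median difference was 0.01, 0.40, 0.46 and 0.08 in these 4 comparisons, against 0.05, 0.06, 0.02 and -0.01 over all genes. The shares called were 20%, 75%, 80% and 15% of the list, against 37.1%, 62.2%, 66.8% and 43.6% of all genes. Without scaling the direction with 2i in wild-type cells turned, to 1 higher and 8 lower with a median of -0.16. That of all genes was -0.50 there, with 2239 of 24463 genes higher and 15244 lower. For genotype in 2i+LIF without scaling 15 were higher and 0 lower, against 9896 and 3147 of all genes. Leaving out the scaling shifts every gene by the same amount, so the place of the list relative to all genes could not change. Most of the rises came in the 2 comparisons in which fibroblast markers were lower, and the part of those markers was not tested. With 2i in wild-type cells Mybl2, a transcription factor of the cell cycle, rose by 0.99, the checkpoint kinase Bub1 by 0.67 and the mitotic kinase Cdk1 by 0.58 (limma, adjusted p between 2.7e-06 and 1.4e-04), and the survivin gene Birc5 gave -0.27 (adjusted p = 0.025). In LIF, Nat1-null cells had more Mybl2 (1.41), the motor protein Kif23 (0.75) and the cyclin Ccnb2 (0.73). In 2i+LIF they had more Kif23 (0.84), the kinase Aurkb (0.61) and Ccnb2 (0.18). With 2i in Nat1-null cells the motor protein Kif20a was higher (0.41), and the transcription factor Foxm1 (-0.30), the kinase Nek2 (-0.24) and the topoisomerase Top2a (-0.16) were lower. Within slide 3 alone none of these falls was called (adjusted p = 0.15, 0.1 and 0.17). Birc5 lost its call without any 1 of 4 single arrays, and Aurkb and Ccnb2 in 2i+LIF lost theirs without any 1 of 3 and with the row of the slide as a covariate. Without scaling Bub1 and Cdk1 were 0.11 and 0.014 with 2i in wild-type cells and were not called. The 2i effect on these genes differed between genotypes for 12 of 20, all lower in Nat1-null cells, where 49.7% of all genes were called, 23.6% higher and 26.1% lower. Without scaling 5 were higher and 1 lower, where 10272 of 24463 genes were higher and 2810 lower. The 12 were led by Mybl2 at -1.27, the phosphatase Cdc25c at -0.68 and Foxm1 at -0.66 (adjusted p = 8.6e-05, 0.024 and 0.003). For the upstream genes that difference was called higher for 9, led by Trp53bp1 (1.86), Cdkn2a (0.90) and Chek2 (0.77), and lower for 4 (65% of the list), led by Sirt1 (-0.72), Prkdc (-0.61) and Kat5 (-0.47). Cdkn2a and Sirt1 lost this call in 6 and 8 of 12 fits that left out 1 array, and without scaling Sirt1, Prkdc, Kat5, Cdc25c and Foxm1 were not called. For the further targets it was called higher for 9 and lower for 5 (77.8% of those tested). Among the higher were Cd82 (2.58) and Thbs1, which was measured above background in too few groups for a value. Among the lower were Tob1 (-1.39), Fdxr (-1.16) and Bid (-1.01).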

How the data were processed

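Total RNA of 12 mouse embryonic stem cell samples was hybridised to single-colour Agilent arrays. Per the file headers the scans were read with Feature Extraction 10.7.3.1, which gives each spot a background-subtracted, linear signal intensity. The authors' series table holds log2 values of the same arrays, which correlated at 1.00000 with log2 of those intensities and had a 75th percentile of 0 and medians between -3.87 and -3.59, so it was scaled to the 75th percentile without centring genes.

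From the intensities, control and outlier spots were left out, spots of a probe were averaged, and log2 values were set relative to the 75th percentile of each array. Values on all arrays were left for 54229 of 55681 probes. A probe was kept where some group had it well above background on its 3 arrays, which held for 33293. Names came from matching each probe's RefSeq transcript to the annotation of GRCm38.p6, and the probe with the highest mean over arrays stood for its gene, which left 24463 genes. Of these 15428 had a gene symbol, and the others were kept under the name that the array gives their probe. Shares of all genes are over this mixed set. The array headers name build mm9, so no array coordinates were used. Promoter windows and their coordinates are those of RefSeq on GRCm38.p6.

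All 12 arrays entered 1 limma fit (limma 3.58.1 with eBayes, R 4.3.3) with a mean per group. The 5 contrasts were the 2i effect in each genotype, the genotype effect in each medium, and the difference of the 2i effects. For genes with several probes, p-values of the second probe come from the same fit with every probe as a feature. Tests were two-sided and adjusted by the Benjamini-Hochberg method over all genes, with a threshold of 0.05. On simulated data for the genotype comparison in LIF, with 24463 genes, 83% of the genes changed by 1 on the log2 scale and 93% of those changed by 2 were called. Of 186 calls 10 were false. The simulation had independent noise, no slide effect and far fewer changed genes than were called in the data, so these shares need not hold there. Python 3.11.15 with pandas 2.3.3 and matplotlib 3.10.9 made the tables and plots.

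The members, roles and other gene lists were chosen with earlier results of these data known. Every member is described. Values per array are given for Eif4g2, Trp53, Mdm2, Cdkn1a and, for each comparison, up to 4 called members in each direction with the largest difference. Of each other list up to 3 called genes in each direction are named. A probe not well above background on any array of a group has only a bound there, given as "at least" against the lowest signal well above background. The labels do not say whether replicates were separate cultures, so the p-values reflect only how far these samples differ from each other, which may be technical. Between 49.8% and 66.3% of 59305 spots per array were well above background, and the 3 arrays per group limit the precision.

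The alternatives were normexp background correction with an offset of 50, no scaling, quantile normalization, the series table, no filter or a stricter filter on dim probes, the mean of a gene's probes, every probe as a feature, only the groups compared, the replicate number as a block and leaving out each array. The row of the slide as a covariate, and leaving out array 2 of both Nat1-null groups, were added after seeing the data. One gene of the further p53 targets is counted in that list but not reported here by name.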

Additional observations from a re-analysis of the deposited data

Results flagged for a closer look

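The effect of 2i differed between genotypes for 23 of the 31 genes, by limma's test of the difference itself, where 49.7% of all genes were called. Each value here is the log2 difference between 2i+LIF and LIF in Nat1-null cells minus that in wild-type cells. Among the arrest genes it was 1.91 for Btg2, 1.43 for Ccng1, 0.47 for Cdkn1a, 0.76 for Gadd45a, 2.07 for Plk2 and -1.74 for Sesn1. Among the death genes it was 3.11 for Fas, 2.13 for Phlda3, 0.99 for Trp53inp1, 0.98 for Tnfrsf10b, 0.97 for Bbc3, 0.93 for Perp, 0.52 for Aen and 0.49 for Apaf1. It was negative for Pmaip1 (-1.49), Bax (-0.95), Ei24 (-0.50) and Pidd1 (-0.49). Among the regulators it was 1.20 for Mdm2, -1.05 for Mdm4 and -0.94 for Pml, and among the repair genes -0.85 for Ddb2 and -0.75 for Rrm2b. Adjusted p lay between 1.2e-07 and 0.038.

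Of these calls, Gadd45a and Ei24 ended in most fits that left out 1 array, and Rrm2b in 5 of them. Without scaling between arrays Pidd1 was -0.11 (limma, adjusted p = 0.45), Bax -0.58 (adjusted p = 0.1) and Ddb2 -0.47 (adjusted p = 0.11), and none of them was called. With the row of the slide as a covariate Aen was 0.43 (adjusted p = 0.064) and Ddb2 -0.66 (adjusted p = 0.053). The values above are those of the brighter probe. A second Cdkn1a probe gave 2.86 (adjusted p = 2.9e-05), and a second Mdm4 probe gave -0.03 and was not called (adjusted p = 0.83). Second probes of Aen, Pml and Trp53inp1 were called in the direction of the first. For Fbxw7, not called by its first probe, the second gave -0.64 (adjusted p = 0.015). The wild-type groups lay on different slides and differed in fibroblast signal, with a log2 sum of 3.06 to 3.14 in 2i+LIF and 8.14 to 8.25 in LIF, and the part of either in these values was not tested.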

How the results depend on the processing

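Of 3684 values of single genes under 24 alternatives, 3440 kept their side of the threshold, 151 lost a call and 83 gained one. A further 10 turned direction with a call in the fit reported or in the alternative. Values called in neither fit are among the 3440 whatever their direction. The reversals came without scaling, where the 2i differences in wild-type cells became -0.045 for Pml, -0.36 for Zmat3, -0.14 for Pidd1, -0.51 for Apaf1, -0.44 for Ei24 and -0.048 for Xpc, the genotype difference of Plk2 in 2i+LIF became 0.0050, and the 2i difference of Ckap2 in Nat1-null cells became -0.030. With its 2 probes averaged Cdkn1a became -0.42 for 2i in wild-type cells and 0.65 for genotype in 2i+LIF. The median of all genes without scaling was -0.50 for 2i in wild-type cells and -0.14 for genotype in LIF. The number of members called stayed within 1.5 times the main count apart from 4 for genotype in 2i+LIF with the row of the slide as a covariate and 10 for 2i in Nat1-null cells with only those 6 arrays, where calls over all genes numbered 4797, against 10666 in the fit reported, and 4846, against 9079. Leaving out 1 array at a time gave 14 to 20 members called for 2i in Nat1-null cells, 22 to 26 for 2i in wild-type cells, 23 to 27 for genotype in LIF, 11 to 16 for genotype in 2i+LIF and 20 to 25 for the difference of the 2i effects. The replicate numbers did not pair the arrays throughout. Residuals correlated above 0.1 in 1 of 18 pairs of arrays with the same number in different groups, against 3 of 36 pairs with different numbers. That 1 pair was array 2 of the 2 Nat1-null groups, at 0.30, where pairs with different numbers reached at most 0.18. A source shared by these 2 arrays was not tested. With the replicate number as a block the counts of members called, in the order above, were 19, 24, 26, 14 and 23. Calls over all genes then numbered 8789, 15147, 16229, 10459 and 11990. Without array 2 of both Nat1-null groups the counts of members were 22, 26, 27, 18 and 26. Those over all genes were 9871, 16818, 17092, 12170 and 13229. Slide as a block could not be fitted, apart from the fit within slide 3, and the difference of the 2i effects has no fit with fewer groups. The causes of the other changes were not tested. The values of Fas in Nat1-null LIF cells are limited by its signal, which cleared background on 2 of those 3 arrays.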
